A study of Mus musculus with 151 samples.

Results

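The ovaries of 39-week-old female mice conceived by in vitro fertilization (IVF) were compared with those of females conceived by natural mating (Natural). Every library labelled as a 39-week ovary was taken, 5 IVF and 5 Natural, which are 10 of the 151 samples of the series, together with all genes of the count table they share. The study asked, for these libraries, whether conception by IVF alters gene expression in the ovary of the adult daughter as it ages. Its other samples are ovaries at earlier stages, primordial germ cells, oocytes and cumulus cells.

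Females of both groups had CF-1 mothers and B6/SJL fathers, and no engineered allele or drug is named for them. Natural females were conceived in an unstimulated cycle and grew in the uterus of their own mother. IVF females came from eggs of CF-1 mothers stimulated with equine and human chorionic gonadotropins, were fertilized and cultured to the blastocyst stage in low oxygen, and were then transferred to pseudopregnant CF-1 recipients. Stimulation of the egg donor, fertilization and culture in vitro, and embryo transfer therefore came together, and their parts in any difference cannot be told apart. Pups of both groups were delivered by cesarean section and raised by CF-1 foster dams, with IVF pups delivered on a later nominal day of gestation. Each library was made from polyadenylated RNA of part of a single snap-frozen ovary. The methods state that the females came from different litters, but they also allow littermates within the adult cohorts. Which libraries share a litter, if any, is not known here. The stage of the estrous cycle at collection is given for females used in hormone assays and not for these libraries.

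An adult mouse ovary holds growing follicles, in which dividing granulosa cells surround each oocyte, and corpora lutea, the bodies that granulosa and theca cells form after ovulation. Granulosa cells secrete inhibin, activin and follistatin, while luteal cells import cholesterol into their mitochondria and convert it to progesterone. Blood vessels, fibroblasts, macrophages and the surface epithelium make up the rest, and the oviduct opens beside the ovary. The whole tissue was lysed, so fewer cells of a type and less RNA per cell cannot be told apart in these data.

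The libraries held 18079970 to 38526898 counts in Natural and 18660209 to 38751638 in IVF. Markers of steroid-making cells and oocytes were present in every library: Star ranged from 462 to 8894 CPM (counts scaled to a common library size, per 1e6, after trimmed-mean normalization) and the oocyte gene Gdf9 from 21.2 to 60.3 CPM. IVF replicate 1 stood apart on the first principal component, which held 37% of the variance, at -139 against -16.4 to 33.0 for the other 9 libraries. It was also the library with oviduct RNA: Ovgp1, the secreted glycoprotein of the oviduct epithelium, stood at 6663 CPM there, at 0.853 to 16.3 CPM in the other IVF ovaries and at 1.55 to 109 CPM in Natural. The summed level of 19 oviduct epithelium genes was 9585 CPM in IVF replicate 1 and 39.5 to 230.5 CPM elsewhere, the 230.5 belonging to Natural replicate 1, and none of the 19 was at 0 in every library. Natural replicate 5 is labelled 39 weeks in its title and 40 weeks in its source name, and the design text counts 4 Natural and 6 IVF ovaries where the labels give 5 of each. Results are therefore given for all 10 libraries and without IVF replicate 1, and the effect of leaving out Natural replicate 5 is given where counts are first stated.

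Most of the differences that passed the edgeR test were decreases in IVF. Of 17186 genes tested, 45 passed an adjusted p of 0.05 (edgeR quasi-likelihood test, Benjamini-Hochberg adjustment over all genes tested), which is 0.262%. Of these, 35 were lower in IVF, 0.204% of the genes tested, and 10 were higher, 0.0582%. In each of the 45 genes the Natural and IVF values did not overlap. These genes were picked by a test on the same values, so their separation adds no support. Across all tested genes the groups were separate with IVF lower in 2.85% and with IVF higher in 2.27%. The 35 decreases had log2 fold changes of -5.03 to -0.44 with a median of -1.06, and the 10 increases 0.47 to 1.65 with a median of 0.73, while the median over all tested genes was 0.03.

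The number of genes passing depended on single libraries and on the test. Without IVF replicate 1, 123 genes passed, 0.7% of 17570, with 40 higher (0.228%) and 83 lower (0.472%), and these included all 45 in the same direction. Leaving out IVF replicates 2, 3, 4 or 5 left 6, 15, 8 and 10 genes, and leaving out Natural replicates 1, 2, 3 or 4 left 5, 8, 11 and 22. Without Natural replicate 5, edgeR passed 0 genes, with a lowest adjusted p of 0.0617, while 2497 genes had an unadjusted p under 0.05, among them all 45, and DESeq2 passed 733. The log2 fold changes of the 45 genes without that library were 0.883 to 1.07 times those with it, and all 45 kept their direction whichever single library was left out. With all 10 libraries DESeq2 passed 1229 genes, 583 higher (3.51%) and 646 lower (3.89%), which is 7.4% of the genes it tested, and these included the 45.

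The largest decrease was that of Olfr1033 (chr2:86020633-86045171, GRCm38, plus strand), which is annotated as an olfactory receptor. Its level was 27.1, 1.01, 23.4, 28 and 29.2 CPM in Natural replicates 1 to 5 and 0.787, 0.326, 0.787, 0.95 and 0.497 CPM in IVF replicates 1 to 5. Natural replicate 2 lay just above the IVF range and the other 4 Natural ovaries far above it, so the log2 fold change of -5.03 ± 0.76 (SE, n = 5 per group, edgeR adjusted p = 0.0303) came from 4 of the 5. Olfactory receptors form a large family of similar genes, and the reads of such a gene are uncertain where copies resemble it.

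Stxbp5l, a brain-rich protein that binds the SNARE machinery of secretion (chr16:37114942-37384962, GRCm38, minus strand), was at 57.5, 20.3, 44, 23.7 and 48.1 CPM in Natural and at 3.04, 1.78, 2.89, 9.78 and 7.7 CPM in IVF. The lowest Natural library was still above the highest IVF one, and the fitted decrease was 7.67-fold (log2 fold change -2.94 ± 0.50, edgeR adjusted p = 0.0499).

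The next in size were a neighbouring pair. Acot12, a cytosolic thioesterase that splits acetyl-CoA (chr13:91741512-91786148, GRCm38, plus strand), and 4833422C13Rik, a noncoding transcript annotated as antisense (chr13:91701665-91741872, minus strand), run away from each other and overlap at their 5′ ends. 4833422C13Rik stood at 28.8, 14.4, 15, 25.1 and 26.6 CPM in Natural and at 3.77, 2.13, 3.59, 4.27 and 2.4 CPM in IVF. Every IVF library was below every Natural one, a difference of 6.81-fold (log2 fold change -2.77 ± 0.28, edgeR adjusted p = 0.0147). Acot12 stood at 12.1, 5.85, 5.96, 7.44 and 8.52 CPM in Natural and at 1.01, 0.301, 1.6, 0.886 and 2.08 CPM in IVF, again without overlap (log2 fold change -2.76 ± 0.46, edgeR adjusted p = 0.0461). The shared part covers 149 exon bases of Acot12. Exons of Acot12 and Ssbp2 on the other strand together overlap 1914 of the 5915 exon bases of 4833422C13Rik. The sources used here do not say whether the counting used strand, so reads from the overlapped parts cannot be assigned to a gene. The 250 bases before each RefSeq start (GRCm38.p6) are shown because each stretch lies inside the other gene: that of Acot12 is chr13:91741271-91741520 on the plus strand, and that of 4833422C13Rik is chr13:91741873-91742122 on the minus strand.
Acot12: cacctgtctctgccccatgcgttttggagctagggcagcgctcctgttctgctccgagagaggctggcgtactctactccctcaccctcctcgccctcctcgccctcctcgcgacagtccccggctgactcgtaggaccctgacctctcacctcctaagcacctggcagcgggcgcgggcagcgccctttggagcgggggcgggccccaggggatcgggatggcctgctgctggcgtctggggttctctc
4833422C13Rik: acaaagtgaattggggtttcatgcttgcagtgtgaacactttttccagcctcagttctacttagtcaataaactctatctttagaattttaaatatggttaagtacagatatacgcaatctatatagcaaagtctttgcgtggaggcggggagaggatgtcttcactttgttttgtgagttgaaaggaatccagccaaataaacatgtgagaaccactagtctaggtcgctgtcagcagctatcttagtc

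Cp encodes ceruloplasmin, the copper-carrying ferroxidase that lets iron leave cells (chr3:19957054-20009145, GRCm38, plus strand). It was the most abundant of the genes named among the decreases, at 1077, 551, 411, 407 and 372 CPM in Natural and 186, 51.6, 120.5, 114 and 78.2 CPM in IVF. Natural replicate 1 was the highest and IVF replicate 2 the lowest, and the decrease of 5.13-fold (log2 fold change -2.36 ± 0.40, edgeR adjusted p = 0.0464) was -1.99 on the log2 scale without that Natural library.

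Adap2, a GTPase-activating protein for Arf proteins at the membrane, fell from 28 to 44.6 CPM in Natural to 9.13 to 14 CPM in IVF (log2 fold change -1.57 ± 0.19, edgeR adjusted p = 0.0166). Fgf11, a growth factor homologue that stays inside the cell, fell from 28.5 to 49.5 to 11.7 to 21 CPM (-1.34 ± 0.21, adjusted p = 0.0321), and the ankyrin repeat gene Sowaha from 4.53 to 9.16 to 1.27 to 2.47 CPM (-1.66 ± 0.27, adjusted p = 0.0408). The uncharacterized genes 1700087I21Rik, a long intergenic noncoding RNA with 2.38 to 3.97 CPM in Natural and 0.696 to 0.992 CPM in IVF, and Gm35438, 3 to 7.35 and 0.731 to 1.55 CPM, had log2 fold changes of -2.01 ± 0.22 and -2.31 ± 0.31, with edgeR adjusted p-values of 0.0147 and 0.0221. In all 5 genes of this paragraph the highest IVF library was below the lowest Natural library.

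The remaining 25 decreases had log2 fold changes of -1.26 to -0.44. Those named in this paragraph were chosen after their values were seen, for functions that are well known. Maoa, the mitochondrial monoamine oxidase, was at 165, 150.4, 143, 129.9 and 149 CPM in Natural and 75.2, 50.8, 79.5, 57.5 and 68.1 CPM in IVF. The groups lay far apart, and the decrease was 2.23-fold (edgeR adjusted p = 0.0147). Pank1, which commits pantothenate to coenzyme A, was at 346 to 563 CPM in Natural and 184 to 247 CPM in IVF (1.97-fold lower, adjusted p = 0.0303). Pfkfb2, an enzyme that sets the level of an activator of glycolysis, was at 69.7 to 120 and 37.1 to 58.1 CPM (2-fold lower, edgeR adjusted p = 0.0408). The carnitine carrier Slc22a5 and the lysophospholipase Pnpla7 fell 1.69-fold and 2.12-fold, with adjusted p-values of 0.0303 and 0.0499. The lipid transporter Abca8a was at 55.8, 65, 64.7, 63.3 and 69.2 CPM in Natural and 21.8, 31.7, 35.4, 29.7 and 33.6 CPM in IVF, and fell 2.09-fold (adjusted p = 0.0166).

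Of the next genes from the same 25, only Plau was not chosen after its values were seen. The thrombin receptor F2r stood at 91 to 132 CPM in Natural and 58.9 to 72.8 CPM in IVF (1.6-fold lower, edgeR adjusted p = 0.0454), and the ADP receptor P2ry1 at 14.8 to 18.7 and 6.46 to 9.57 CPM (2.02-fold lower, adjusted p = 0.0238). Ror1, a receptor for Wnt5a, stood at 52.5, 40.6, 41.9, 43.7 and 45.7 CPM in Natural and 20.9, 27, 23.1, 29.5 and 23.8 CPM in IVF (1.81-fold lower, adjusted p = 0.0221), and the Wnt receptor Fzd5 at 52.5 to 92.4 and 25 to 42.3 CPM (2.12-fold lower, adjusted p = 0.0464). Tapbp, tapasin, which loads peptides on class I antigen-presenting molecules, fell from 232 to 299 to 157 to 179 CPM (adjusted p = 0.0303), and the interferon-induced gene Slfn5 from 40.4 to 52.2 to 20.4 to 29.9 CPM (adjusted p = 0.0248). Plau, the urokinase that activates plasminogen and with it matrix breakdown, was at 250.2, 257, 281, 179 and 267 CPM in Natural and 128, 125, 142, 169 and 126 CPM in IVF. The lowest Natural library, replicate 4, was close to the highest IVF library, and the decrease was 1.79-fold (log2 fold change -0.84 ± 0.14, edgeR adjusted p = 0.0408). The membrane and cytoskeleton gene Cobll1 fell from 236 to 358 to 89.3 to 146 CPM, the largest change of the 25 at 2.39-fold (adjusted p = 0.0166).

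All 10 increases are named here. The largest fold was that of AA465934, an uncharacterized transcript of low abundance (chr11:83291699-83294632, GRCm38, plus strand), at 1.27, 1.97, 2.09, 2.19 and 1.6 CPM in Natural and 2.98, 7.25, 7, 5.32 and 6.09 CPM in IVF, with IVF replicate 1 the lowest of its group (log2 fold change 1.65 ± 0.28, edgeR adjusted p = 0.0464). Marcksl1, a membrane protein that binds actin and calmodulin (chr4:129513581-129515985, plus strand), was the most abundant, at 141, 144, 204, 162 and 161 CPM in Natural and 303, 293, 276, 363 and 356 CPM in IVF. All IVF libraries were above all Natural ones, and the rise was 1.96-fold (log2 fold change 0.97 ± 0.13, edgeR adjusted p = 0.0221). Sema3c, a secreted semaphorin that guides migrating cells through plexin and neuropilin receptors, was at 26.9, 32.1, 35.3, 30.8 and 29.5 CPM in Natural and 56.8, 60.9, 42.5, 75.9 and 48.4 CPM in IVF, a rise of 1.84-fold (adjusted p = 0.0492).

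Regulators of the cytoskeleton, chromatin and RNA were next in size. Net1, which activates the GTPase RhoA, was at 64.9, 67.6, 69.4, 62.9 and 62.4 CPM in Natural and 149.9, 120.1, 99.7, 96.7 and 135 CPM in IVF (1.84-fold higher, edgeR adjusted p = 0.0248). Its Natural libraries spanned a narrow range that no IVF library entered. Smarca1, an ATPase that moves nucleosomes, was at 80.7 to 108 CPM in Natural and 127 to 184 CPM in IVF (1.69-fold, adjusted p = 0.0408). Ppp1r14b, an inhibitor of protein phosphatase 1, was at 43 to 54 and 67.2 to 87.5 CPM (1.62-fold, adjusted p = 0.0221), and the cold-shock protein Ybx3, which binds RNA and DNA, at 107 to 123 and 154 to 180.5 CPM (1.52-fold, adjusted p = 0.0187).

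The smallest increases were in enzymes of folate, purine and protein synthesis. Shmt2, which charges mitochondrial folate with carbon from serine, was at 53, 61.3, 63.6, 63.9 and 52.8 CPM in Natural and 94.2, 81.5, 86.2, 78.8 and 85.4 CPM in IVF. Atic, which completes the purine ring of inosinate, was at 78.1, 77, 77.9, 76.1 and 64.5 CPM in Natural and 116, 109, 106, 106 and 98.9 CPM in IVF, and Gars, the glycyl-tRNA synthetase, at 57.1, 60.9, 65.8, 54.1 and 59.2 CPM in Natural and 85, 81.7, 82.6, 83.9 and 79 CPM in IVF. The rises were 1.45-fold, 1.43-fold and 1.39-fold, with edgeR adjusted p-values of 0.0408, 0.0303 and 0.0303. They were small next to the decreases above, and the libraries within each group differed little.

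**Figure D1:**
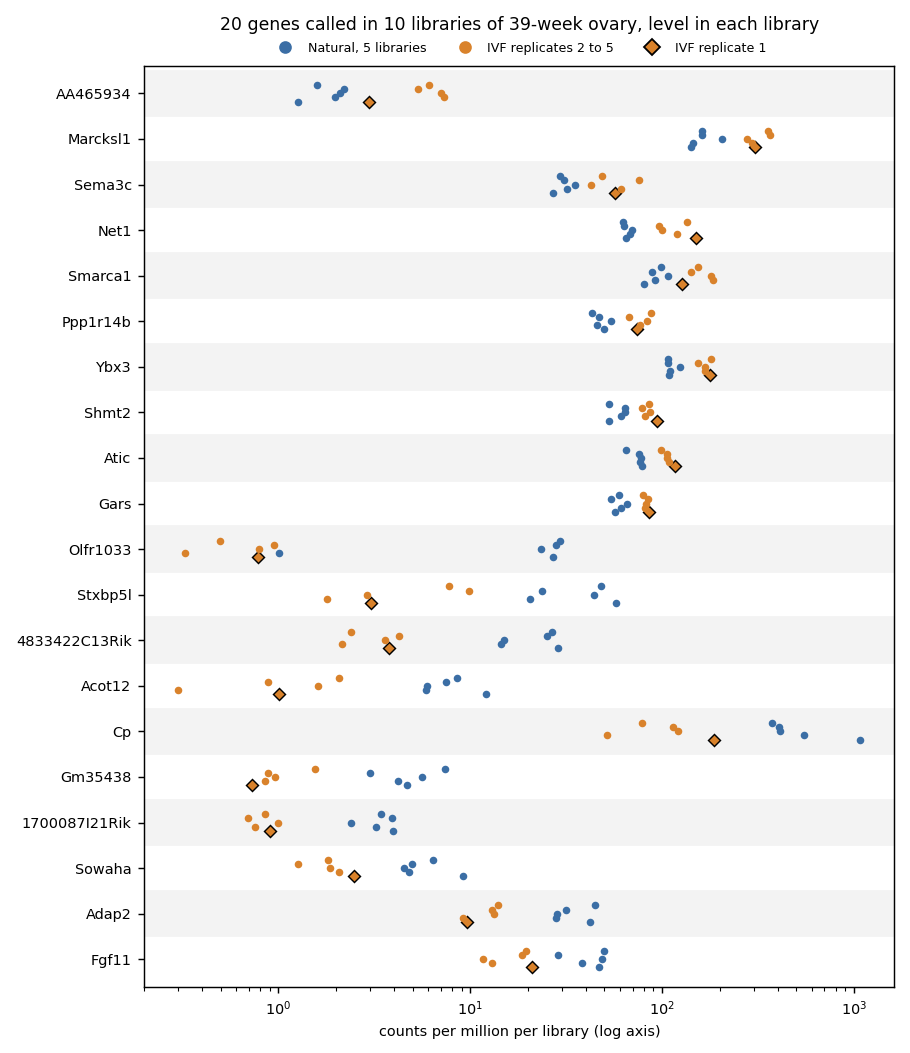
Level of the 20 genes with the largest rise or fall among those passing the test, in CPM on a log axis, with 1 point per library. Blue points are the 5 Natural libraries, orange points IVF replicates 2 to 5, and the outlined diamond IVF replicate 1. The groups are separate in every row, and in Olfr1033 a single Natural library, at 1.01 CPM, sits beside the IVF libraries.

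The genes passing were spread over the genome. Of the 45, 44 have a single locus in GENCODE release M21 (GRCm38), on 17 chromosomes and with at most 8 on any of them. Exons of 17 overlap exons of a gene on the other strand, in 6 of them over at least 10% of their exon bases, and for these the strand used in counting could matter. The pair on chromosome 13 was the only one among the 45 whose loci overlap each other.

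Without IVF replicate 1, 78 further genes passed, 30 higher and 48 lower in IVF, and in 35 of these IVF replicate 1 lay within the Natural range or beyond it. All 123 genes, again picked by a test on the same values, were separate in the 9 libraries. Of all tested genes, 4.32% were separate there with IVF higher and 4.33% with IVF lower. Leaving out a further library gave 5 genes without IVF replicate 2, 27, 51 and 32 without IVF replicates 3, 4 and 5, 42, 80, 123 and 48 without Natural replicates 1 to 4 and 34 without Natural replicate 5. DESeq2 passed 1597 genes in the 9 libraries, 9.1% of those it tested (4.39% higher and 4.71% lower), among them all 123.

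Among the further increases were secreted products of granulosa cells. Fst, follistatin, which binds and blocks activin (chr13:114452290-114458951, GRCm38, minus strand), was at 27.7, 48.6, 68.2, 48.8 and 71.6 CPM in Natural and 131, 153, 166 and 162 CPM in IVF replicates 2 to 5. All 4 were well above the Natural range, while IVF replicate 1, at 56.5 CPM, was inside it. The rise was 2.88-fold in 9 libraries (log2 fold change 1.53 ± 0.23, edgeR adjusted p = 0.0275) and 1.34 ± 0.32 on the log2 scale in 10 (adjusted p = 0.0916). Nppc, the precursor of the C-type natriuretic peptide with which follicle cells hold the oocyte in meiotic arrest, was at 2.75, 2.9, 4.65, 3.09 and 5.38 CPM in Natural, 9.46, 8.34, 11.8 and 10.6 CPM in IVF replicates 2 to 5 and 4.27 CPM in IVF replicate 1 (log2 fold change 1.41 ± 0.23 in 9 libraries, adjusted p = 0.0321).

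The largest further increase was in Zpld1, a membrane protein with the zona pellucida type of domain (chr16:55225175-55297986, GRCm38, minus strand). It was at 0.635, 0.447, 0.835, 0.709 and 0.798 CPM in Natural and at 7.35, 4.81, 12.2 and 2.6 CPM in IVF replicates 2 to 5, with IVF replicate 1 at 0.45 CPM, level with the lowest Natural library (log2 fold change 3.29 ± 0.42 in 9 libraries, edgeR adjusted p = 0.0178). Ankrd63 rose from 10.8 to 29.2 to 33.5 to 104 CPM (adjusted p = 0.0439), the small GTPase Rnd2 from 13.9 to 28 to 41.5 to 86.2 CPM (adjusted p = 0.0217), and Pamr1 from 9.95 to 18.3 to 24.9 to 39.9 CPM (adjusted p = 0.0435). IVF replicate 1 was inside the Natural range in Ankrd63 and Rnd2, at 16 and 17 CPM. Fam60a, a subunit of the Sin3 histone deacetylase complex, and Flrt3, an adhesion protein, rose 2.39-fold and 2.19-fold, with adjusted p-values of 0.048 and 0.0444.

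The increases in the genes that follow were chosen after their values were seen. Myc, the growth-promoting transcription factor, was at 38.1, 61.3, 40.2, 47.1 and 44.2 CPM in Natural and 87.5, 99.5, 80.9 and 65.7 CPM in IVF replicates 2 to 5 (1.8-fold, edgeR adjusted p = 0.0466), and Cebpb, which granulosa cells need to become luteal cells, at 94.2, 67.8, 76.8, 75.2 and 82.4 and 189, 196, 109.8 and 121 CPM (1.94-fold, adjusted p = 0.0474). IVF replicate 1 overlapped the Natural range in both. Nop2, which methylates ribosomal RNA, rose 1.44-fold (adjusted p = 0.0266), Nhp2, a core protein of small nucleolar RNPs, 1.52-fold (adjusted p = 0.0361), and the arginine methyltransferase Prmt1 1.39-fold (adjusted p = 0.0324). The cytokine Mif rose from 82.3 to 98.6 CPM to 118 to 137 CPM (adjusted p = 0.0256), with IVF replicate 1 higher still at 188 CPM.

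Mab21l2, a developmental gene, was at 19.2, 4.02, 15.6, 5.89 and 13.8 CPM in Natural and 0.853, 0.933, 2.56 and 2.05 CPM in IVF replicates 2 to 5 (log2 fold change -2.87 ± 0.54 in 9 libraries, edgeR adjusted p = 0.0477). Gm32633 fell from 3 to 11.8 to 0.502 to 1.58 CPM (adjusted p = 0.0466), B3gat1, which builds the HNK-1 carbohydrate, from 1.31 to 6.85 to 0.351 to 1.05 CPM (adjusted p = 0.0482), and the somatostatin receptor gene Sstr2 from 1.85 to 3.54 to 0.276 to 0.855 CPM (adjusted p = 0.0297). In all of these IVF replicate 1 was also below the Natural range, and the adjusted p in 10 libraries was 0.0512 to 0.0573. Chosen after its values were seen, Hsd11b1, which regenerates active glucocorticoid, was at 13.1, 12.8, 12.6, 11.4 and 14.2 CPM in Natural and 3.51, 1.2, 1.93 and 5.33 CPM in IVF replicates 2 to 5 (4.28-fold lower, adjusted p = 0.0434), with IVF replicate 1 at 10.5 CPM. Xdh, which makes uric acid, was at 180, 140.3, 104, 129 and 109.9 CPM in Natural and 46.2, 44.1, 36.4 and 44.8 CPM in IVF replicates 2 to 5 (3.1-fold lower, adjusted p = 0.00956), and the oxysterol receptor Nr1h3 at 36.7 to 59.5 and 16 to 26.3 CPM (2.05-fold lower, adjusted p = 0.0435).

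In 2 further genes, also chosen after their values were seen, leaving out IVF replicate 1 turned the direction. Gm867 was at 6.3, 3.43, 3.7, 3.83 and 3.67 CPM in Natural and 1.23, 1.78, 1.14 and 1.08 CPM in IVF replicates 2 to 5, but at 84.8 CPM in IVF replicate 1. Its log2 fold change was 2.10 ± 1.25 in 10 libraries (edgeR adjusted p = 0.37) and -1.67 ± 0.27 in 9 (adjusted p = 0.0297). Cyb561, a transmembrane electron carrier, was at 44.1, 30.9, 26.6, 29 and 29.6 CPM in Natural, 13, 17.6, 16.5 and 18.9 CPM in IVF replicates 2 to 5 and 160.3 CPM in IVF replicate 1. Its log2 fold change went from 0.49 ± 0.68 (adjusted p = 0.713) to -0.96 ± 0.17 (adjusted p = 0.0405). Both genes were high in the library with oviduct RNA and, in Natural, highest in replicate 1, which had the second highest oviduct sum, and the part of that RNA in these values was not tested.

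**Figure D2:**
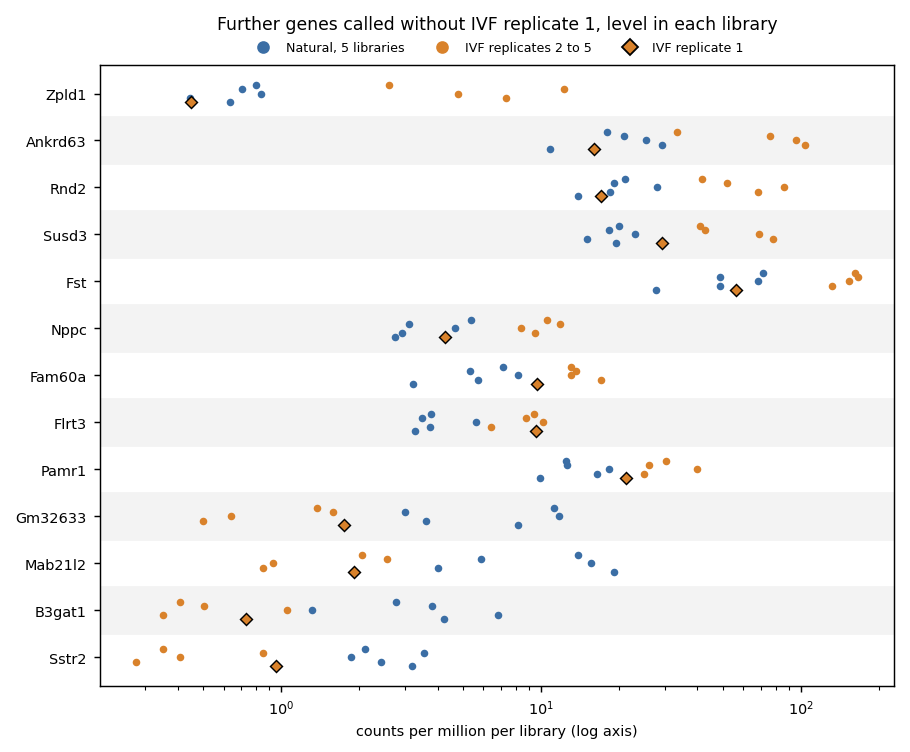
Level of 13 further genes that passed only without IVF replicate 1, in CPM on a log axis, with 1 point per library in the same colours as before. IVF replicates 2 to 5 are separate from Natural in every row, and the diamond of IVF replicate 1 lies among the Natural points in Zpld1, Ankrd63, Rnd2, Fst and Nppc.

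The stretch upstream of the genes passing in either set of libraries was searched for CAAGGTCA, the core site of the nuclear receptors Nr5a1 and Nr5a2 of steroid-making cells, on both strands of the 250 bases before the RefSeq start. Susd3, a membrane protein with a sushi domain, holds it and rose from 15.1 to 23.1 CPM in Natural to 41 to 78 CPM in IVF replicates 2 to 5, with IVF replicate 1 at 29.1 CPM (log2 fold change 1.59 ± 0.20 in 9 libraries, edgeR adjusted p = 0.0178, and 0.0512 in 10). Wdr86, a WD repeat gene, holds it and fell from 15.7 to 26.6 to 7.6 to 13.3 CPM in all 10 libraries (adjusted p = 0.0467), and B3gat1 holds it too. Both stretches below are written 5′ to 3′ on the strand of the gene, at chr13:49248295-49248544 on the minus strand for Susd3 and chr5:24730681-24730930 on the minus strand for Wdr86 (GRCm38.p6, RefSeq), and the capitals mark CAAGGTCA.
Susd3: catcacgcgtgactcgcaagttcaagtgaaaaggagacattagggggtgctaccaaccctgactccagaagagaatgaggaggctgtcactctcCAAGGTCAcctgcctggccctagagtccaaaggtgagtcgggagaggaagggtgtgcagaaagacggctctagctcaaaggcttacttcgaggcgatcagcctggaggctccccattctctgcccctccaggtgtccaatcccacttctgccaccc
Wdr86: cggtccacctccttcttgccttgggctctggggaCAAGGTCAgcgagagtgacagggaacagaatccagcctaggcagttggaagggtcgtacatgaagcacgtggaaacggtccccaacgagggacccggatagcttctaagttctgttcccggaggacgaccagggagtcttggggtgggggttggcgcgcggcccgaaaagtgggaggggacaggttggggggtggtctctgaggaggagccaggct
The motif was present in 1 of 31 stretches of genes that rose (3.23%) and 2 of 66 of genes that fell (3.03%), and in 162 of 12527 (1.29%) of all tested genes with a RefSeq stretch. It was in none of the 10 steroidogenesis genes with such a stretch. A match is a run of letters and not a measured site.

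Of 36 gene lists with 642 distinct tested genes, 2 genes passed in 10 libraries, Plau and Sema3c, which is 0.312%, against 0.262% of all genes. Without IVF replicate 1, 6 of 647 passed, 0.927% against 0.7% of all genes, the further 4 being Fst, Lum, Pdgfra and Lgals3. The lists are therefore described by the number of members with a higher or lower fitted value and by the median log2 fold change, beside 0.03 for all tested genes in 10 libraries and -0.01 in 9. Of all tested genes, 53.5% had a higher fitted value in IVF in 10 libraries and 49.05% in 9. Lists can share members, as those of corpus luteum and steroidogenesis share Cyp11a1, Hsd3b1 and Star. A member that did not pass the test is given by its values.

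The luteal and steroidogenic genes had lower values in IVF, and no member passed. Of 12 corpus luteum genes, 11 had a lower fitted value, with a median log2 fold change of -0.70 in 10 libraries and -0.57 without IVF replicate 1. Their summed level was 44550, 25730, 43520, 25300 and 45210 CPM in Natural replicates 1 to 5 and 13470, 14570, 22630, 23840 and 32220 CPM in IVF replicates 1 to 5. Natural replicates 2 and 4 were inside the IVF range and Natural replicates 1, 3 and 5 far above it. Cyp11a1, which cuts the side chain of cholesterol, was at 11760, 7704, 10170, 7008 and 9934 CPM in Natural and 4642, 6141, 5467, 4927 and 9701 CPM in IVF (log2 fold change -0.59 ± 0.25, edgeR adjusted p = 0.232). Hsd3b1, which makes progesterone from pregnenolone, ranged over 5536 to 8297 CPM in Natural and 2818 to 7418 CPM in IVF (log2 fold change -0.36 ± 0.25, adjusted p = 0.445). Star, which carries cholesterol into mitochondria, had a log2 fold change of -1.37 ± 0.48 (adjusted p = 0.18) and its lowest level in IVF replicate 2.

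Over the 16 tested steroidogenesis genes the median was -0.32, and -0.20 without IVF replicate 1, with 11 lower in both. The 27 genes of cholesterol synthesis and uptake had 20 lower values and a median of -0.32 in 10 libraries, and 17 and -0.14 in 9. Without Natural replicate 5 the steroidogenesis median was -0.33 and that of the cholesterol genes -0.08, and with IVF replicate 1 left out as well the latter turned to 0.11. Scarb1, the receptor that takes cholesterol esters from high-density lipoprotein, was at 3129, 1448, 2675, 1443 and 3054 CPM in Natural and 579, 597, 1713, 1826 and 1961 CPM in IVF (log2 fold change -0.82 ± 0.41, edgeR adjusted p = 0.296). Sfrp4, a secreted Wnt-binding protein abundant in luteal tissue, was at 6575, 2776, 7253, 2701 and 7039 CPM in Natural and 1038, 478, 1837, 4492 and 3175 CPM in IVF, and the prolactin receptor Prlr at 1582, 989, 1649, 908 and 1996 and 444, 646, 1134, 1086 and 1489 CPM. These 3 genes shared the pattern of high values in Natural replicates 1, 3 and 5 and low values in IVF replicates 1 and 2, and their groups overlapped.

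Granulosa genes had higher values in IVF. Of 17 members, 15 were higher in either set of libraries, with a median log2 fold change of 0.38 in 10 libraries and 0.54 in 9. Their summed level was 1804, 3400, 4726, 3647 and 4121 CPM in Natural and 7620, 5640, 7151 and 6477 CPM in IVF replicates 2 to 5, while IVF replicate 1, at 2718 CPM, was within the Natural range. In the 9 libraries 6 of the 17 genes were separate between groups with IVF higher, where 4.32% of all tested genes were. Inha, the alpha subunit of inhibin, was at 354, 686, 1123, 879 and 893 CPM in Natural, 2341, 1095, 2056 and 1470 CPM in IVF replicates 2 to 5 and 699 CPM in IVF replicate 1 (log2 fold change 1.14 ± 0.32 in 9 libraries, edgeR adjusted p = 0.0988). Gja1, the connexin of granulosa gap junctions, was at 408, 722, 1351, 903 and 1327 CPM in Natural and 2219, 1456, 1965 and 1592 CPM in IVF replicates 2 to 5, with no overlap in the 9 libraries (log2 fold change 0.94 ± 0.32, adjusted p = 0.14). Inhbb, an activin subunit, was at 56.8 to 562 CPM in Natural and 559 to 1104 CPM in IVF replicates 2 to 5, and overlapped narrowly (adjusted p = 0.201). Fst was the only member to pass.

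Oocyte genes, receptors and theca genes had medians nearer to that of all genes than granulosa genes did. Of 24 tested oocyte genes, 19 had higher values, with a median of 0.26 in 10 libraries, 0.30 in 9 and 0.16 without Natural replicate 5, and their sums overlapped at 230.8 to 387.4 CPM in Natural and 252.1 to 504.3 CPM in IVF. Kit, the receptor for stem cell factor on oocytes and theca cells, was at 15.1, 33.4, 26.8, 21.3 and 24.3 CPM in Natural and 49.5, 124, 33.6, 38.8 and 32.7 CPM in IVF, with IVF replicate 2 far above the rest (log2 fold change 1.20 ± 0.38, edgeR adjusted p = 0.146). The luteinizing hormone receptor Lhcgr varied within Natural, at 31.5, 32.1, 331, 57.4 and 613 CPM, as much as between groups, with IVF at 56.8, 437, 402, 286 and 260.3 CPM (adjusted p = 0.805). In the theca and interstitium list the median was -0.06 in 10 libraries and 0.02 in 9, and Pdgfra, the platelet-derived growth factor receptor of stromal and theca cells, was at 314, 393, 305, 394 and 260.5 CPM in Natural, 212, 173, 196 and 194 CPM in IVF replicates 2 to 5 and 282 CPM in IVF replicate 1. It passed in 9 libraries, where it fell 1.72-fold (log2 fold change -0.78 ± 0.14, edgeR adjusted p = 0.0435), and not in 10 (adjusted p = 0.095).

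Genes of division and protein synthesis had higher values in IVF without any member passing. Of 30 cell cycle genes, 29 were higher in either set, with medians of 0.37 and 0.43. The proliferation antigen Mki67 was at 42.2, 111, 84.6, 153 and 75.3 CPM in Natural and 77.6, 109.5, 119.9, 117 and 181 CPM in IVF (log2 fold change 0.38 ± 0.31, edgeR adjusted p = 0.524), Natural replicate 4 lying above 4 of the IVF ovaries. All 80 cytosolic ribosomal protein genes had a higher fitted value in both sets, with a median of 0.45 in 10 libraries, and 25 of the 80 were separate between groups, where 2.27% of all tested genes were. Their summed level was 32730, 32990, 40530, 30940 and 28070 CPM in Natural and 53430, 45580, 45830, 44290 and 39060 CPM in IVF, so that Natural replicate 3 lay above IVF replicate 5 and no other pair crossed. Rplp0, the stalk protein of the large subunit, was at 1049, 961, 1204, 973 and 856 CPM in Natural and 1908, 1338, 1504, 1470 and 1415 CPM in IVF (log2 fold change 0.60 ± 0.14, adjusted p = 0.0896), and Rpl4 had a log2 fold change of 0.48 ± 0.13 (adjusted p = 0.108). Genes of this family have many processed copies, and their reads are uncertain to that extent. Of 26 translation factors 25 were higher, with medians of 0.36 and 0.26, and Eef2, the translocase of elongation, was at 3704, 3393, 5118, 3568 and 3781 CPM in Natural and 6391, 4892, 6137, 5952 and 5414 CPM in IVF (adjusted p = 0.126).

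Messenger RNAs of ribosomal proteins begin with a run of pyrimidines, through which their translation follows growth signals. Rack1, a scaffold of the small subunit whose level was 911, 1026, 1185, 858 and 767 CPM in Natural and 1622, 1418, 1344, 1476 and 1205 CPM in IVF without overlap (log2 fold change 0.57 ± 0.14, edgeR adjusted p = 0.0985), is shown with 4 genes of the list over the 15 bases before and after the RefSeq start. They lie, in order, at chr11:48800345-48800374 (plus), chr4:86857353-86857382 (minus), chr2:39005117-39005146 (minus), chr11:114668565-114668594 (plus) and chr7:141447636-141447665 (plus) of GRCm38.p6, and the capitals mark CTTT.
Rack1: cggaggccgctCTTTCTTTttctccacagg
Rps6: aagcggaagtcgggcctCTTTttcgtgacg
Rpl35: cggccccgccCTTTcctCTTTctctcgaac
Rpl38: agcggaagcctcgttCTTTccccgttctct
Rplp2: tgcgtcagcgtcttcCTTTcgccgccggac
These stretches were shown because they hold CTTT, and they do not stand for the whole list. Among genes with a RefSeq stretch, CTTT lay within 10 bases of the start on the transcribed strand in 17 of 59 ribosomal protein genes (28.8%). It did so in 4 of 19 translation factors (21.1%) and in 1041 of 12527 (8.31%) of all tested genes.

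Genes of sugar use and growth factor signalling were mixed. Of 18 glycolysis genes, 17 had higher values in 10 libraries, with a median of 0.43, and 14 in 9, with 0.33. Slc2a1, the glucose carrier Glut1, was at 24.3, 28.4, 23.7, 27.6 and 20.8 CPM in Natural and 86.3, 52.3, 34.6, 31.2 and 31.6 CPM in IVF, with no overlap and with IVF replicate 1 the highest (log2 fold change 0.92 ± 0.27, edgeR adjusted p = 0.131). Aldoa, the aldolase of glycolysis, ranged over 842 to 1233 CPM in Natural and 1119 to 1596 CPM in IVF (adjusted p = 0.26). In the insulin and IGF list the median was 0.07 in 10 libraries and 0.17 in 9, and its IGF binding proteins had opposite signs. Igfbp5 was at 309.8, 456, 412, 318 and 353 CPM in Natural and 851, 624, 409, 761 and 689.7 CPM in IVF (log2 fold change 0.85 ± 0.19, adjusted p = 0.0861), while Igfbp7 was at 682, 504, 546, 519 and 501 and 246, 449, 357, 419 and 319 CPM (log2 fold change -0.62 ± 0.17, adjusted p = 0.108). Igfbp7 values did not overlap, and neither gene passed.

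**Figure D3:**
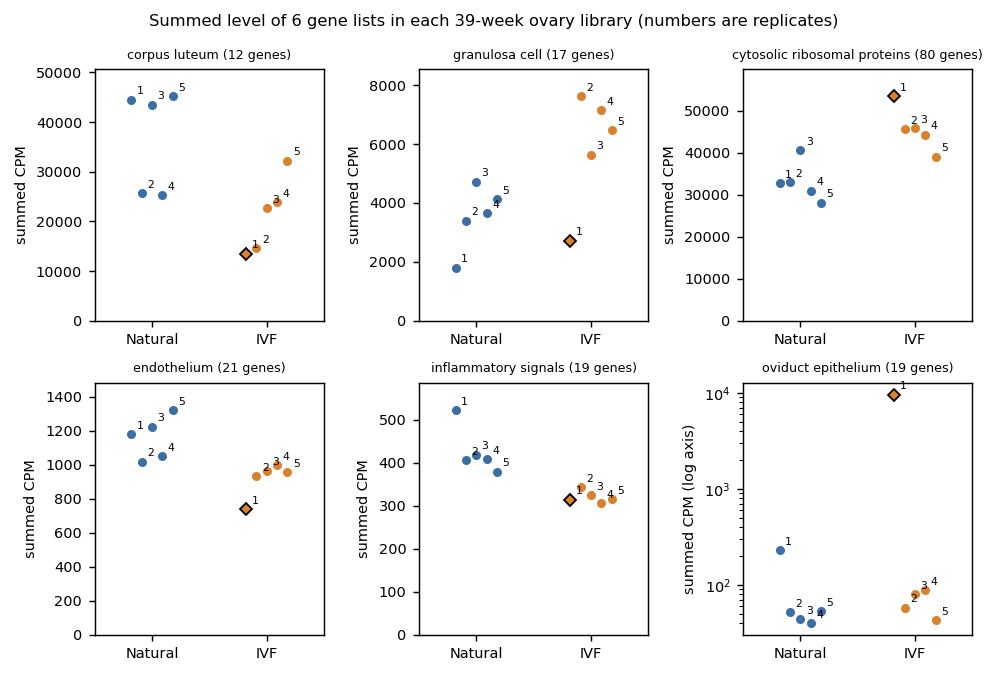
Summed level of 6 gene lists in each library, in CPM, with the replicate number beside each point and a log axis for the oviduct epithelium panel alone. Natural and IVF do not overlap in the endothelium and inflammatory panels. IVF replicate 1 (diamond) leaves its group in the granulosa cell panel, at 2718 CPM, and in the oviduct panel, at 9585 CPM. It is also below the rest of its group in the endothelium panel, at 737.7 CPM.

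Endothelial genes had lower values in IVF. Of 21 endothelial genes, 17 were lower in either set, with medians of -0.27 and -0.19, and -0.22 without Natural replicate 5, and none passed. Their summed level was 1180, 1019, 1225, 1052 and 1321 CPM in Natural and 737.7, 933.4, 965.4, 997.5 and 956.6 CPM in IVF. The groups did not overlap, though Natural replicate 2 and IVF replicate 4 lay close together. IVF replicate 1, the library with oviduct RNA, was far below the other IVF ovaries, which spanned 933.4 to 997.5 CPM. Eng, the endothelial co-receptor endoglin, was at 266, 205, 228, 201 and 255 CPM in Natural and 138, 127, 152, 172 and 161 CPM in IVF, and missed the threshold in 10 libraries and in 9 (log2 fold change -0.62 ± 0.11, edgeR adjusted p = 0.0544 and 0.0559). Cdh5, the cadherin of endothelial junctions, overlapped widely at 109 to 138 and 71.6 to 127 CPM (log2 fold change -0.18 ± 0.15, adjusted p = 0.531), and the receptor Kdr stood at 92.8, 91.5, 112, 77.2 and 141 and 52.1, 67.9, 85.2, 70.8 and 91.7 CPM (adjusted p = 0.21). Ptprb, the phosphatase of endothelial receptors, which is in no list and was chosen after its values were seen, was at 100.5, 119.7, 107, 114 and 119 CPM in Natural and 41.8, 78.4, 70.5, 84.8 and 80.1 CPM in IVF and passed in 9 libraries (log2 fold change -0.52 ± 0.09, adjusted p = 0.0361). The pericyte gene Pdgfrb was separate at 272 to 328 and 166 to 238 CPM (adjusted p = 0.0888). Its list of 12 smooth muscle and pericyte genes had a median of 0.17 in 10 libraries, with 11 members higher and Pdgfrb alone lower. In 9 libraries the median was 0.02, with 6 members higher.

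Collagen genes were split between higher and lower values, with 10 of 19 higher and a median of 0.04 in 10 libraries, 9 higher and -0.00 in 9, and -0.07 without Natural replicate 5. Col1a1, a chain of type I collagen, was at 1331, 1258, 889, 2099 and 748 CPM in Natural and 2064, 1860, 1116, 1534 and 1596 CPM in IVF (log2 fold change 0.37 ± 0.28, edgeR adjusted p = 0.474), and Col3a1 had a log2 fold change of -0.12 ± 0.29 (adjusted p = 0.846). With these standard errors a change of moderate size in either direction was not detectable. The 30 matrix genes had 14 higher and 16 lower values and a median of -0.06 in 10 libraries. In 9 libraries 12 were higher and 18 lower, with a median of -0.08. Among them Lum, a proteoglycan that orders collagen fibrils, was at 386, 363, 325, 427 and 239 CPM in Natural and 107, 192, 187, 186 and 213 CPM in IVF with no overlap. It passed in 9 libraries (log2 fold change -0.84 ± 0.16, adjusted p = 0.0466) and not in 10 (-0.97 ± 0.20, adjusted p = 0.0676), IVF replicate 1 being the lowest.

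Immune lists had lower values in IVF or a median near 0. The 20 macrophage and monocyte genes had 10 higher and 10 lower values and a median of -0.00. Among 16 tested genes of inflammatory signals 11 were lower, with a median of -0.27 in both sets, and their summed level did not overlap at 522.1, 406, 418.5, 408 and 378.7 CPM in Natural and 313.7, 342.8, 324.1, 306.5 and 314.9 CPM in IVF. The chemokine Cxcl12 was at 232, 172, 179, 136 and 153 CPM in Natural and 85.5, 110, 117, 90.1 and 138 CPM in IVF (edgeR adjusted p = 0.0954). The NF-kappa-B inhibitor Nfkbia had the opposite sign, at 59.7 to 76.9 CPM in Natural and 63.9 to 110.4 CPM in IVF (adjusted p = 0.228). Of 16 tested lymphocyte and antigen presentation genes 15 were lower, with a median of -0.35, and B2m, the light chain of class I molecules, was at 268, 253, 224, 249.7 and 233 CPM in Natural and 133, 192, 211, 154 and 158 CPM in IVF with no overlap (adjusted p = 0.0921). Cd74, the invariant chain of class II molecules, overlapped at 226 to 396 and 206 to 334 CPM.

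Genes of the lipid-laden and multinucleated macrophages of the ageing ovary were looked at apart. Their list of 11 had 6 higher and 5 lower values and a median of 0.13 in 10 libraries. In 9 libraries 5 were higher and 6 lower, with a median of -0.02, and Lgals3 alone passed. Lgals3, galectin-3, was at 342, 151, 306, 147 and 242 CPM in Natural, 60.8, 79.9, 71.3 and 99.9 CPM in IVF replicates 2 to 5 and 189 CPM in IVF replicate 1, and fell 3.04-fold in 9 libraries (log2 fold change -1.61 ± 0.28, edgeR adjusted p = 0.0384, and 0.116 in 10). Spp1, osteopontin, showed the widest span, at 954, 269, 233, 834 and 260 CPM in Natural and 268, 22.8, 11.6, 51.9 and 121 CPM in IVF, with a log2 fold change of -3.29 ± 0.76 in 9 libraries that did not pass (adjusted p = 0.0675). IVF replicate 1 was the highest IVF library in both genes, and epithelial cells also express them.

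In the lists of stress and survival no member passed. The median over 24 heat shock and folding genes was 0.26 in 10 libraries, with 21 higher, and 0.12 in 9, with 17 higher. The other medians were, in 10 and in 9 libraries, 0.06 and 0.01 over 25 antioxidant genes, 0.19 and 0.14 over 14 immediate early genes, 0.04 and -0.06 over 13 senescence genes and 0.03 and 0.06 over 16 cell death genes. Gpx3, a secreted glutathione peroxidase, was at 2603, 3009, 3502, 1016 and 2789 CPM in Natural and 800.3, 697, 683, 2627 and 3038 CPM in IVF, so low and high libraries occurred in both groups (edgeR adjusted p = 0.443). Bcl2l1, which blocks apoptosis, was separate at 58.1, 53.7, 60.5, 43.5 and 51.4 CPM in Natural and 108, 86.6, 71.8, 82.9 and 68 CPM in IVF (log2 fold change 0.64 ± 0.14, adjusted p = 0.075). The immediate early gene Jun was at 513, 247, 453, 314 and 446 CPM in Natural and 224, 148, 155, 284 and 239.6 CPM in IVF (log2 fold change -0.91 ± 0.24, adjusted p = 0.106), opposite in sign to the median of its list.

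The 7 tested genes of the mitochondrial genome all had lower values in IVF, with medians of -0.68 and -0.69, and none passed. COX1, a core subunit of cytochrome oxidase, was at 15790, 8445, 21530, 8538 and 16100 CPM in Natural and 12130, 9676, 6896, 9738 and 12250 CPM in IVF (log2 fold change -0.47 ± 0.30, edgeR adjusted p = 0.399). Natural replicates 2 and 4 were inside the IVF range and Natural replicates 1, 3 and 5 above it, the same split as in the corpus luteum sum. Without Natural replicate 5 the median of the 7 genes was -0.62.

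The 16 tested oviduct genes had a median of 3.27 in 10 libraries, all higher, and -0.49 in 9, with 13 lower, and the 11 surface epithelium genes 0.80 and 0.43. Krt18, a keratin of simple epithelia, was at 692 CPM in IVF replicate 1, at 18 to 47.5 CPM in the other IVF ovaries and at 7.18 to 33.6 CPM in Natural. The 10 tested adipocyte genes had 5 higher and 5 lower values, with medians of 0.06 in 10 libraries and 0.29 in 9. Cfd, the adipocyte product adipsin, was at 165, 468, 23, 5.7 and 49.99 CPM in Natural and 4.33, 195, 48.3, 24.8 and 907 CPM in IVF. All 5 tested erythroid genes had lower values in IVF, with a median of -0.63, and 5 of 6 in 9 libraries, with -0.64, while the median was -0.31 without Natural replicate 5. None passed, and the haemoglobin gene Hbb-bs was at 285, 329, 1247, 112 and 1040 CPM in Natural and 514, 198, 72.5, 1129 and 364 CPM in IVF. The part of carried fat, blood or oviduct RNA in the differences above was not tested.

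In the lists of imprinting, DNA methylation and ovarian insufficiency no member passed. The 25 tested imprinted genes had 12 higher and 13 lower values and a median of -0.01, which was 0.15 in 9 libraries with 14 higher, and Igf2r, which removes IGF2 from the cell surface, was separate at 202, 213, 191, 239.6 and 206 CPM in Natural and 179, 142, 185, 163 and 181 CPM in IVF (log2 fold change -0.31 ± 0.10, edgeR adjusted p = 0.148). The 8 enzymes of DNA methylation had 4 higher values and a median of 0.06 in 10 libraries, and 6 higher and 0.19 in 9. The 5 tested ovarian insufficiency genes at which the study assayed DNA methylation had medians of 0.11 and 0.04. Foxo3, which keeps primordial follicles dormant, was at 115 to 169.8 CPM in Natural and 149.8 to 199 CPM in IVF (adjusted p = 0.259). Esr1, the estrogen receptor alpha, was at 266 CPM in IVF replicate 1 and 81 to 135 CPM in the other IVF ovaries, against 91.7 to 133 CPM in Natural, and its log2 fold change was 0.36 in 10 libraries and -0.02 in 9. Over 28 hedgehog, Wnt and Notch genes the medians in 10 and in 9 libraries were 0.07 and 0.01, and over 18 semaphorins, plexins and neuropilins 0.09 and -0.04, Sema3c alone passing. Over 10 ovulation and cumulus genes they were 0.24, with 7 higher, and 0.03, with 5 higher. Over 16 hormone and growth factor receptors they were 0.27 and 0.31.

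**Figure D4:**
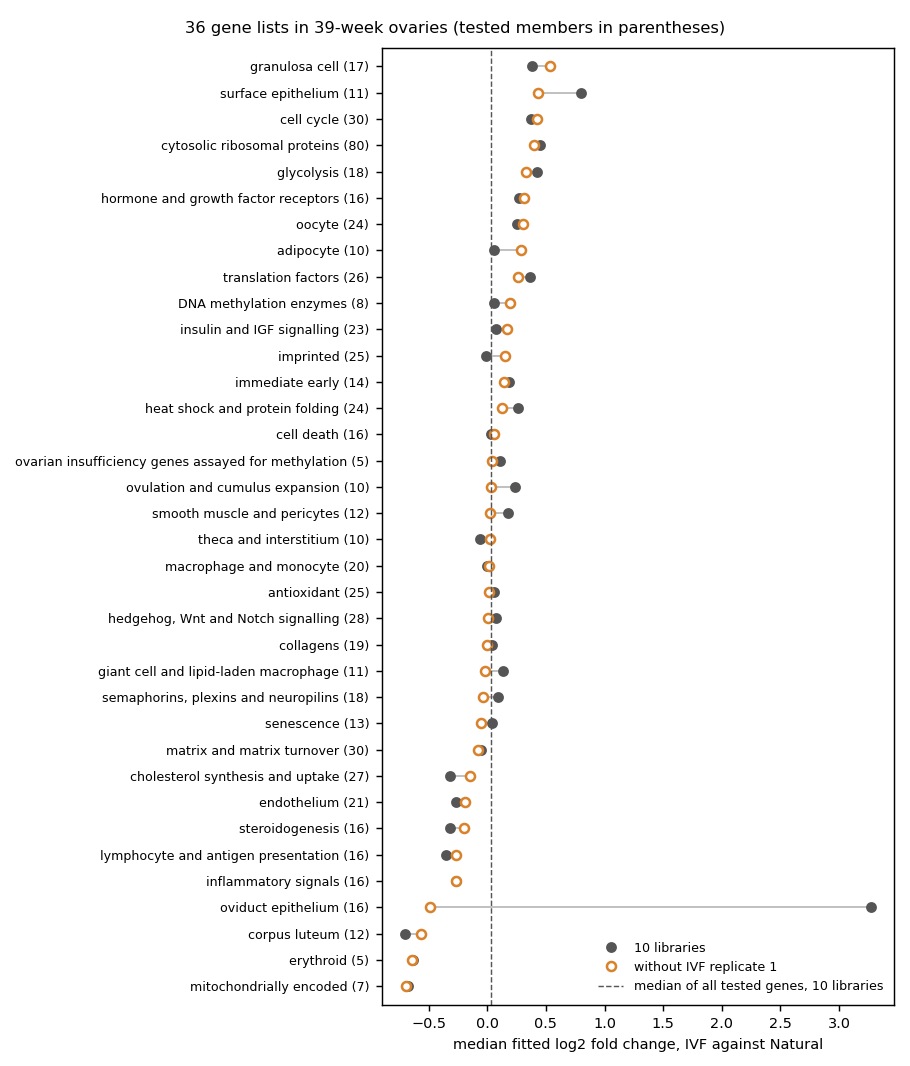
Median fitted log2 fold change of IVF against Natural for each of 36 gene lists, with the number of tested members in parentheses. Filled points are all 10 libraries, open points are without IVF replicate 1, and the dashed line is the median of all tested genes, 0.03. The oviduct list moves from 3.27 to -0.49, and the corpus luteum and ribosomal lists stay on the same side of the line.

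The same comparison at 12 weeks, with 4 Natural and 5 IVF ovaries, held 20366410 to 29904780 counts in Natural and 2839022 to 43363799 in IVF. A single gene of 17628 passed there (edgeR, 0.00567%), and 2544 had an unadjusted p under 0.05. Oviduct RNA moved with the groups at this age. The summed level of the 19 oviduct genes was 6465, 3512, 8049 and 3463 CPM in Natural replicates 1 to 4 and 2867, 3253, 32.5, 956 and 996 CPM in IVF replicates 1 to 5, so every Natural ovary was above every IVF ovary. None of the 19 was at 0 in a 12-week library other than IVF replicate 3, where 8 were. The part of this RNA in the 12-week values and in the differences between ages was not tested. Of the 45 genes that passed at 39 weeks, 15 had the same direction at 12 weeks, 11 of the 35 decreases and 4 of the 10 increases, and none passed, the lowest adjusted p being 0.173. The 12-week log2 fold changes of the 35 decreases had a median of 0.19, and those of the 10 increases -0.03. Cp kept its direction, with -1.01 ± 0.34 at 12 weeks (adjusted p = 0.24), as did Olfr1033 with -0.64 ± 0.63 (adjusted p = 0.662), while 4833422C13Rik was at 0.70 ± 0.62 (adjusted p = 0.623).

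A test of the difference itself, the IVF effect at 39 weeks minus that at 12 weeks over all 19 libraries, passed for 3 of 19066 genes (edgeR, 0.0157%), 2 higher (0.0105%) and 1 lower (0.00524%), with 3839 genes at an unadjusted p under 0.05. Among the libraries compared the oviduct sum was highest in 39-week IVF replicate 1 and in 12-week Natural. In 12-week IVF replicates 1, 2, 4 and 5 it was 2867, 3253, 956 and 996 CPM. These were also above the 230.5 CPM of 39-week Natural replicate 1, the next highest library at 39 weeks. Optn encodes optineurin, a receptor for the clearance of damaged mitochondria by autophagy. It was at 32.2, 37, 33.3, 33.6 and 33.2 CPM in Natural and 16.4, 21.6, 23.5, 21.5 and 19.5 CPM in IVF at 39 weeks, and at 15.3, 15.8, 13.1 and 16.2 CPM in Natural and 20.2, 22.8, 27.5, 22.3 and 18.0 CPM in IVF at 12 weeks. IVF was below every Natural ovary at the later age and above every Natural ovary at the earlier one, a difference of -1.27 ± 0.17 on the log2 scale (adjusted p = 0.0154). Ppp1r14b, higher in IVF at 39 weeks, was at 73.0, 68.3, 60.2 and 70.9 CPM in Natural and 62.6, 55.8, 55.4, 70.0 and 49.8 CPM in IVF at 12 weeks (difference 0.91 ± 0.14, adjusted p = 0.0294). Ybx3 was at 128.8 to 152.7 CPM in Natural and 129 to 148.1 CPM in IVF at 12 weeks, where the groups overlapped (difference 0.64 ± 0.10, adjusted p = 0.0294).

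These 3 calls depended on single libraries. The count was 20 without 39-week IVF replicate 1, 57 without 12-week IVF replicate 4, 19 without 12-week IVF replicate 2 and 8 without 39-week IVF replicate 5. It was 0 without 12-week Natural replicate 1, 39-week IVF replicate 2, or 39-week Natural replicate 1 or 2, where edgeR left 3253 to 3840 genes at an unadjusted p under 0.05. It was 1 without 12-week IVF replicates 1 or 3 or 12-week Natural replicate 4, and 5 without 39-week IVF replicates 3 or 4. DESeq2 passed 1163 genes with all libraries. Over all these settings the difference for Optn stayed within -1.34 to -1.18, for Ppp1r14b within 0.848 to 0.975 and for Ybx3 within 0.595 to 0.674, with adjusted p-values of up to 0.0967.

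**Figure D5:**
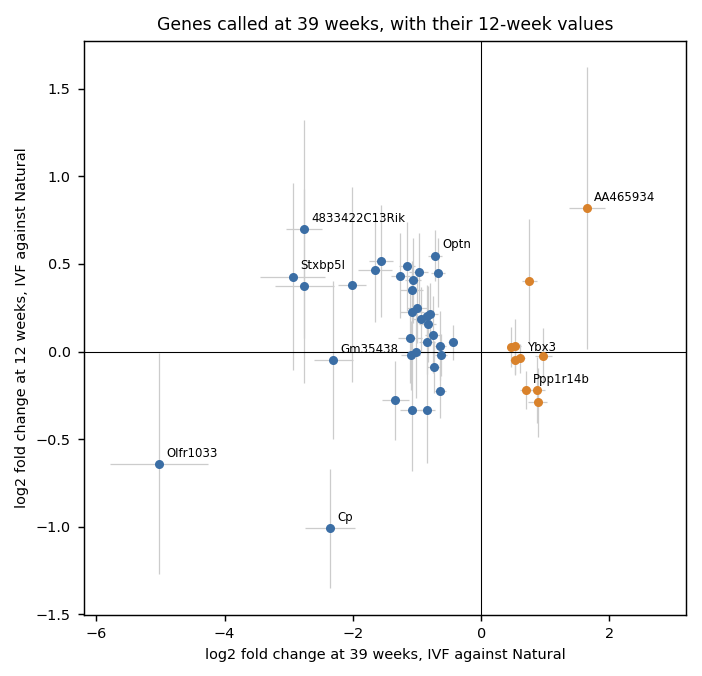
Fitted log2 fold change of IVF against Natural at 39 weeks (horizontal) and at 12 weeks (vertical) for the 45 genes that passed at 39 weeks, blue where lower and orange where higher in IVF, with bars of 1 standard error. Of the 35 decreases 11 lie below the horizontal zero line, with Olfr1033 and Cp lowest among those labelled, and none of the 45 passed at 12 weeks.

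IVF ovaries were not shown to vary more among themselves than Natural ones. The mean distance between libraries, as the root mean square difference of log2 CPM over all tested genes, was 0.932 within IVF and 0.741 within Natural. The difference of 0.191 had a 2-sided exact permutation p of 0.722 over 252 assignments of the labels. Every assignment places the outlying IVF replicate 1 in a group, and group means were not removed before the distances were taken. That p therefore says little about whether the spread differs. Without IVF replicate 1 the means were 0.716 and 0.776, a difference of -0.0599 in the other direction (exact permutation p = 0.373 over 126 assignments).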

How the data were processed

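The deposited table holds counts, whole numbers of reads per gene symbol made by the authors with replicates kept apart. The submitters' processing notes name Trimmomatic 0.32, STAR 2.3.0e, featureCounts 1.5.0 and the build mm10. The libraries were made with a stranded mRNA kit, and the strand setting of the counting is not given in the sources used here. Of 35976 gene names, 27 had been turned into numbers, and no column of another series was present.

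IVF and Natural were compared with edgeR 4.0.16 (R 4.3.3), using trimmed-mean normalization, its filter on low counts, the quasi-likelihood test and Benjamini-Hochberg adjustment over all genes tested. A gene passed at an adjusted p under 0.05. DESeq2 1.42.0, limma 3.58.1 with sample weights, other filters and scalings, and fits without each library were alternatives. CPM values were computed after normalization, and standard errors were derived from the F statistic. The scripts were tested on simulated data. No pair of libraries agreed within sampling noise.

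Genes were named by rule: the 10 largest rises and falls passing in 10 libraries and in 9, list members that passed or had the 3 highest means, genes the study names, and genes whose effect differed with age. The text gives part of the genes that this rule names, and some results are not reported here. The comparison and the lists were chosen with earlier results of these data known. Positions come from GENCODE release M21 and upstream stretches from RefSeq (GRCm38.p6).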

Additional observations from a re-analysis of the deposited data

Results flagged for a closer look

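In 236 groups of 5 libraries, 26 had a library whose gap to the nearest of the others exceeded the 95% limit of Dixon's test for its range, over 22 genes, and chance gives about 1 in 20. IVF replicate 1 was that library for Ovgp1 at 6663 CPM, Foxj1, a ciliated cell factor, at 801 CPM, Krt18 at 692 CPM, Gm867 at 84.8 CPM, Cyb561 at 160.3 CPM, Mif at 188 CPM and Xdh at 101 CPM, all above its group, and for Lum at 107 CPM, below it. Natural replicate 1 was above its group in 4 of these genes, Ovgp1 at 109 CPM, Foxj1 at 29.0 CPM, Gm867 at 6.3 CPM and Cyb561 at 44.1 CPM, and also in Cp at 1077 CPM, Igfbp7 at 682 CPM and F2r at 132 CPM. Natural replicate 3 was above its group in Ybx3 at 123 CPM, Flrt3 at 5.61 CPM, Nfkbia at 76.9 CPM, Eef2 at 5118 CPM and Cdh13, an adhesion gene, at 6.44 CPM. Natural replicate 5 was below its group in Atic at 64.5 CPM, and Natural replicate 2 in Olfr1033 at 1.01 CPM. IVF replicate 2 was above its group in Kit at 124 CPM and below it in Gpx1, a glutathione peroxidase, at 271 CPM. IVF replicate 5 was above its group in Gm35438 at 1.55 CPM and Cfd at 907 CPM.

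The IVF effect differed between 39 and 12 weeks for Optn by -1.28, for Ppp1r14b by 0.91 and for Ybx3 by 0.64 on the log2 scale (edgeR interaction test).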

How the results depend on the processing

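With all 10 libraries, 45 genes passed in edgeR, and RLE scaling (50), robust dispersion (41) and leaving out IVF replicate 1 with Natural replicate 5 (34) stayed within 1.5 times that count. The count was 1229 with DESeq2, 664 with DESeq2 and a fold of at least 1.5, 258 with limma and sample weights, 28 with no filter and 96 with at least 10 counts in every library. Leaving out single libraries gave 0 to 123, where the 0 had 2497 genes at an unadjusted p under 0.05. IVF was the higher group in 22.2% of the edgeR calls and 47.4% of the DESeq2 calls. The deviations of same-numbered libraries from their group means had correlations of 0.399, 0.211, -0.00621, 0.0637 and 0.203. Whether the numbers mark pairs is not known here, and they were not taken as pairs. A fit with the replicate number as a block passed 24 genes. In 3 of the 5 numbers the IVF library correlated best with the Natural library of its own number, a hint from the data only. Without IVF replicate 1 the 123 calls became 1597 with DESeq2, 233 with at least 10 counts in every library, 34 without Natural replicate 5 and 5 to 123 without further single libraries. The 3 genes whose effect differed with age became 1163 with DESeq2, 20 without 39-week IVF replicate 1, 57 without 12-week IVF replicate 4 and 0 to 57 over single libraries. The 0 had 3253 to 3840 genes at an unadjusted p under 0.05. The difference in spread of 0.191 turned to -0.0599 without IVF replicate 1. It was -0.0599 to 0.26 over single libraries.

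For 118 genes with values in the text, 1667 of 2122 values under alternatives kept direction and side of the threshold, 315 no longer passed, 122 newly passed and 18 turned direction. No turned value belonged to a gene that passed in 10 libraries. They were those of 8 genes, whose log2 fold changes over single libraries left out were -0.28 to 0.10 for Col3a1 (0.10 without Natural replicate 4), -1.07 to 1.94 for Cfd (-1.07 without IVF replicate 5), -1.07 to 0.046 for Hbb-bs (0.046 without Natural replicate 3), -0.019 to 0.50 for Esr1, -1.66 to 8.52 for Ovgp1, -1.04 to 6.36 for Foxj1, -1.67 to 2.41 for Gm867 and -0.96 to 0.73 for Cyb561. The lowest values of the last 5 were those without IVF replicate 1, and without Natural replicate 5 as well they were -0.071, -1.96, -1.30, -1.72 and -0.98. With limma and sample weights Foxj1 was at -0.36, Gm867 at -1.40 and Cyb561 at -0.80, and with the replicate block Gm867 was at -0.74 and Cyb561 at -0.34. Where no value bears on them, the causes were not tested. With 5 ovaries a group, even changes of several standard errors could fail to pass, as did Eng in 10 libraries (log2 fold change -0.62 ± 0.11, edgeR adjusted p = 0.0544).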
